A study of Mus musculus with 39 samples.

Results

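The genes described here are 8 markers of oligodendrocyte progenitors or later stages of their lineage, Pdgfra, Cspg4, Olig1, Olig2, Sox10, Gpr17, Bcas1 and Enpp6. They were followed in mouse brain after exposure to the nerve agent soman. They were taken by gene symbol from a table of 47561 genes, and all 8 were among the 14701 genes tested. Soman is an organophosphate that blocks acetylcholinesterase, the enzyme that clears acetylcholine from synapses. It was injected under the skin at 3 doses, set as fractions of the LD50 (the amount lethal to 50% of animals): 1/2, 1/5 and 1/10. Brain RNA, selected by its poly(A) tail, was sequenced at day 1, 3, 7 or 14. These 12 soman groups and 1 saline group each had 3 libraries, which makes 39. The saline group is the only control, and its day of sampling, the strain, age and sex of the mice, the number of doses given and the number of animals in a library are not given in the sources used here. A difference from saline can therefore not be told apart from a difference between sampling days. The labels call the 3 libraries of a group biological replicates. The p-values take them as independent and measure the spread between them.

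Oligodendrocyte progenitors are dividing glial cells spread through grey and white matter that give rise to myelinating oligodendrocytes throughout life. Progenitors carry the growth factor receptor PDGFRA and the proteoglycan NG2, lose both as they commit to differentiation, pass through a short stage marked by GPR17, BCAS1 and ENPP6, and then make myelin. The transcription factors OLIG1, OLIG2 and SOX10 act along the whole of this lineage, in progenitors and in mature cells. Some of the markers are shared with other cells of the brain, since Pdgfra is also made by fibroblasts of the meninges and Cspg4 by pericytes on capillaries.

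According to the GENCODE vM21 annotation of build GRCm38, the 8 are protein-coding genes on 7 chromosomes. Olig1 and Olig2 are both on the + strand of chromosome 16, Olig2 at 91225457 to 91228677 and Olig1 at 91269772 to 91271933. Because the OLIG factors bind E-boxes (CANNTG) and SOX10 binds the SOX motif, the stretch just before the start of a marker gene shows which of these letters its promoter holds. Stretches from RefSeq's promoter table (GRCm38.p6) are given for 4 of the 8 genes, Pdgfra, Cspg4, Olig2 and Enpp6. The other genes were left out, which does not show that the table lacks them. The bases before the start of these 4 genes are given 5′ to 3′, with E-boxes (CANNTG, whose reverse complement has the same form) and SOX motifs (ACAAAG or ACAATG on either strand) in capitals. They lie on the + strand at chr5:75152001-75152250 for Pdgfra, chr9:56864854-56865032 for Cspg4, chr16:91225300-91225456 for Olig2 and chr8:46986637-46986886 for Enpp6.
Pdgfra: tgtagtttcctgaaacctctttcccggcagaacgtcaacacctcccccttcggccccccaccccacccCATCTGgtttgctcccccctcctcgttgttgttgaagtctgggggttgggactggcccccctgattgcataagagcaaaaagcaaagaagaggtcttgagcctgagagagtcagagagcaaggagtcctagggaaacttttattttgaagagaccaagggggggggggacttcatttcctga
Cspg4: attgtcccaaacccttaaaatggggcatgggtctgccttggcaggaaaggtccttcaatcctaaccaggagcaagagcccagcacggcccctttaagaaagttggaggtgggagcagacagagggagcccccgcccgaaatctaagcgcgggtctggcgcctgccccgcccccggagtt
Olig2: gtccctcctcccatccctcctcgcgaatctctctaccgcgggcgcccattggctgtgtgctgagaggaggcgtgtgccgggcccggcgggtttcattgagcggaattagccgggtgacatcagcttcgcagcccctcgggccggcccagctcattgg
Enpp6: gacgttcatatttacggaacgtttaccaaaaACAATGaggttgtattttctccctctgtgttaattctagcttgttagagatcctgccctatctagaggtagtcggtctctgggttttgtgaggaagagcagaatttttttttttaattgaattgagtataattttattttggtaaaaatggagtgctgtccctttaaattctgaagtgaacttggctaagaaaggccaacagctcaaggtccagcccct
The Pdgfra stretch of 250 bases held 1 E-box and no SOX motif, and the Enpp6 stretch of 250 bases held 1 SOX motif and no E-box. Neither motif was found in the 179 bases of Cspg4 or the 157 bases of Olig2. Both motifs are frequent by their length alone. Of 32851 mouse promoters in the table, 66.2% held an E-box within 250 bases, 55.3% within 179 and 50.8% within 157. The SOX motif was held by 25.2%, 19.1% and 16.9% of them at the same lengths. A match of letters is a description of the sequence, and its absence from a window says nothing of the factor.

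Values were in FPKM, fragments scaled to transcript length and library size, which allows levels of different genes to be set side by side. Library sums ran from 296322 to 342231 FPKM, with 24769 to 29662 genes above 0, and the sequencing depth is unknown. The share of the 15 mitochondrial genes was highest at 1/10 LD50 on day 7, at 21.7% in replicate 2 and 25.9% in replicate 3, and lay between 6.60% and 14.3% in the other libraries. In a further check, 7 libraries lay between the other members of their group for a large share of the genes compared. Only genes that were far apart in the other members were compared, and their number is not given here. Among genes more than 2-fold apart in the others, 40.4% to 69.1% were in the middle of the interval in these libraries (median 54.4%). The other 32 ran from 0% to 41.0% (median 16.4%), so the shares overlap. The 7 were set apart because each had a higher share than every library of another group set in its place. All but 1 of them were a replicate 3, that of saline, of the 3 doses at day 1 and, for day 14, of the 1/10 and the 1/5 LD50 dose. The other was the day 7 replicate 2 given 1/10 LD50. Whether the 7 are independent of the others in their group was not tested, and the p-values assume that they are. Calls that change without the 2 or the 7 libraries are given with both values.

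All 8 genes were detected in all libraries, and their order by level was nearly fixed. Over the 39 libraries the mean was 68.1 FPKM for Bcas1, 43.8 for Olig1, 15.6 for Gpr17, 13.6 for Sox10, 12.0 for Olig2, 8.37 for Pdgfra, 4.62 for Enpp6 and 2.07 for Cspg4. Olig1 was above Gpr17, Pdgfra above Enpp6 and Enpp6 above Cspg4 in 39 of 39 libraries. Bcas1 was above Olig1 in 38 and Olig2 above Pdgfra in 37. The neighbours least apart were Sox10 and Olig2, in this order in 33 libraries, and Gpr17 and Sox10, in this order in 32. Between the group with the highest mean and that with the lowest, levels differed by 1.47-fold for Pdgfra and Cspg4 and by 1.87-fold for Enpp6, with the other genes between. Within a group the median coefficient of variation ran from 5.85% for Pdgfra to 16.9% for Bcas1.

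**Figure D1:**
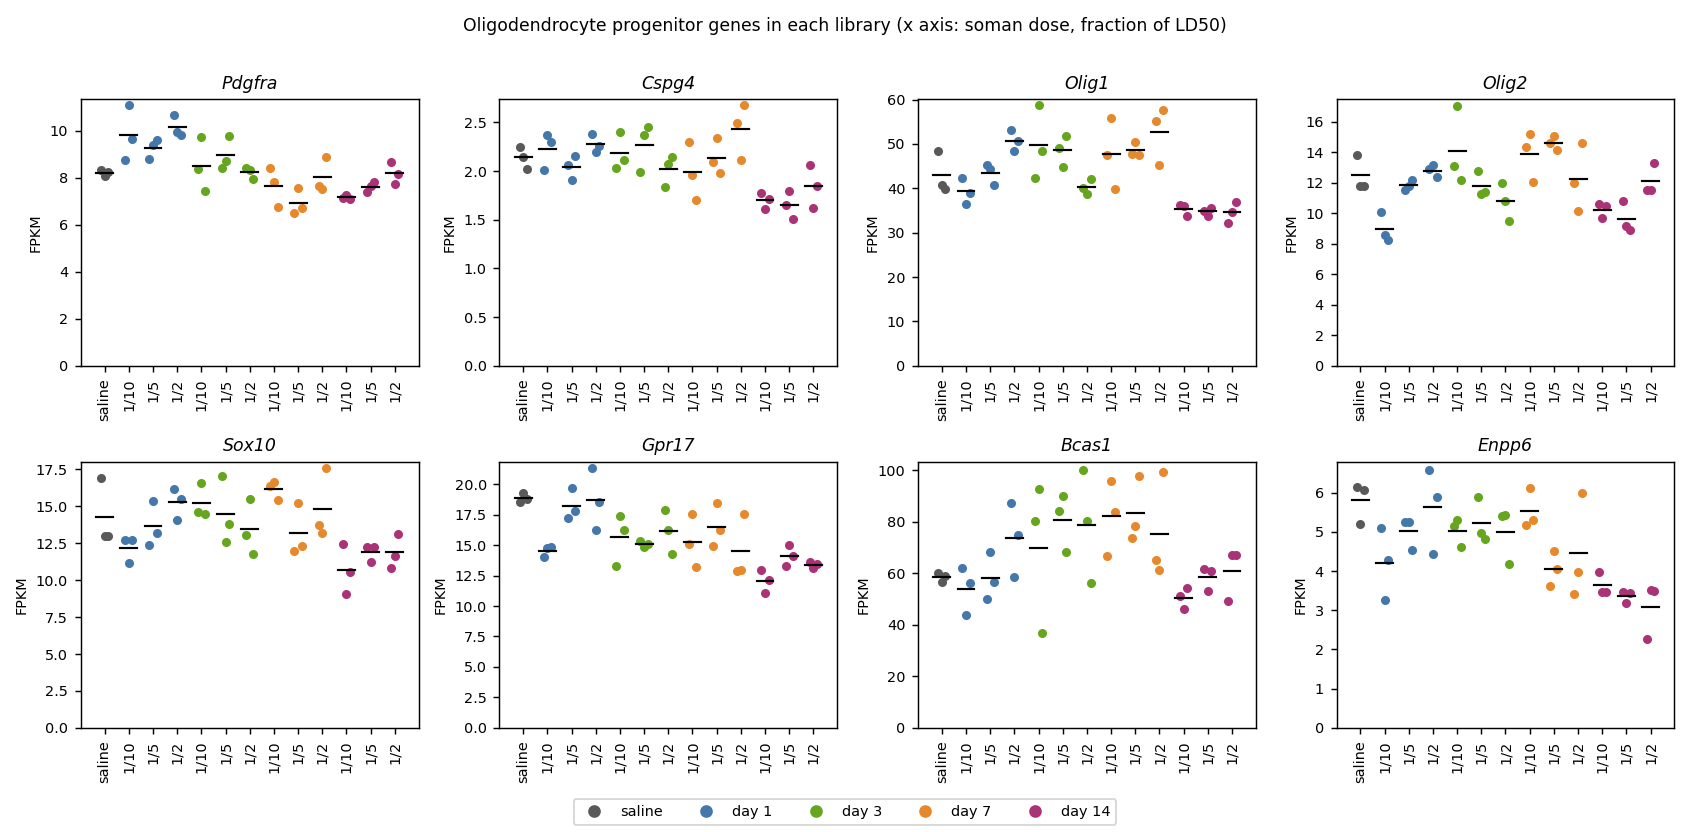
FPKM of each of the 8 genes (y axis, linear, from 0) in each of 39 libraries (points), by soman dose as a fraction of the LD50 (x axis) and day (colour), with the group mean as a bar. The 9 Olig1 libraries of day 14 sit between 32.2 and 36.8 FPKM, below all 9 of day 7.

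Over the 36 soman libraries the 8 genes differed between days of sampling, Bcas1 least firmly, and none was called between the highest and the lowest dose. Differences were tested with limma on log2(FPKM + 1), a scale that understates changes of genes near or below 1 FPKM, with Benjamini-Hochberg adjustment of p across every gene tested and a gene called at an adjusted p under 0.05. By limma's F-test over the 3 doses, 8 of 8 genes differed among the 4 days (adjusted p from 1.01e-06 for Olig1 to 0.0128 for Bcas1). Without the 2 libraries of high mitochondrial share the adjusted p of Bcas1 was 0.0507 by limma, and without the 7 it was 0.0858, which leaves 7 of 8 genes called in each case. Differences among days were common in this brain RNA, since 49.5% of all tested genes passed the same test. Between 1/2 and 1/10 LD50 over the 4 days, 0 of 8 genes were called by limma, where 0.0408% of all tested genes were. Of the 8, Gpr17 alone had an unadjusted p under 0.05 there, as did 2918 of all 14701 tested genes. The Gpr17 log2 difference was 0.11 ± 0.05 (SE), with an adjusted p of 0.251 by limma.

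Most calls came between day 7 and day 14, when 7 of the 8 genes fell and Pdgfra did not pass the test. Over all tested genes 11.5% fell by the same test. The median log2 difference was -0.32 for the 8 genes and 0.01 for all tested genes. The 7 were the 3 transcription factor genes Olig1, Olig2 and Sox10, the surface protein genes Cspg4 and Gpr17, and the stage markers Bcas1 and Enpp6. All 7 calls were kept when each of the 18 libraries was left out in turn, and with the trend on transcript length taken off. The library sums of the 2 days did not overlap, at 318364 to 342231 FPKM at day 7 and 300252 to 313178 at day 14. The median number of genes above 0 was 27899 at day 7 and 25222 at day 14. All 7 calls were kept after libraries were scaled by median ratios. Whether the falls depend on these differences between libraries in other ways was not tested.

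Olig1, a basic helix-loop-helix transcription factor needed for oligodendrocyte maturation and repair, showed the clearest separation. Saline libraries were at 48.5, 40.7 and 39.8 FPKM. At day 7 the levels were 47.5, 55.9 and 39.9 FPKM at 1/10 LD50, 47.8, 50.4 and 47.5 at 1/5, and 55.1, 45.3 and 57.6 at 1/2. At day 14 they were 36.2, 35.9 and 33.8 FPKM at 1/10 LD50, 34.9, 33.8 and 35.6 at 1/5, and 32.2, 34.7 and 36.8 at 1/2. The highest day 14 library was below the lowest day 7 library and below all 3 saline libraries. The share of all tested genes placed beyond the saline libraries in this way was not counted, here or for the genes below. Olig1 was the only member with such a gap between days 7 and 14, and 0.578% of all tested genes had all 9 day 14 libraries below all 9 of day 7. Olig1 fell by 0.49 on the log2 scale (SE 0.06, adjusted p = 7.45e-07 by limma).

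Olig2, the factor that specifies the lineage in the embryo and is kept in progenitors, was between 10.2 and 15.2 FPKM at day 7 (median 14.4) and between 8.94 and 13.3 at day 14 (median 10.6). The days overlapped, mostly through 1/2 LD50, whose libraries were at 12.0, 10.2 and 14.6 FPKM at day 7 and at 11.5, 11.5 and 13.3 at day 14. Olig2 fell by 0.32 (SE 0.06, adjusted p = 0.000342 by limma).

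Sox10, which drives myelin genes and keeps the identity of the lineage, was between 12.0 and 17.6 FPKM at day 7 (median 15.2) and between 9.04 and 13.1 at day 14 (median 11.7). The 3 libraries of 1/10 LD50 were the highest group at day 7, at 16.4, 16.7 and 15.4 FPKM, and the lowest at day 14, at 12.5, 9.04 and 10.6. Sox10 fell by 0.33 (SE 0.07, adjusted p = 0.000851 by limma).

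Cspg4, the gene of the NG2 proteoglycan on the surface of progenitors and pericytes, was between 1.71 and 2.68 FPKM at day 7 (median 2.11) and between 1.50 and 2.06 at day 14 (median 1.71). In 8 of 9 day 14 libraries it was below all saline libraries, which were at 2.25, 2.15 and 2.02. It fell by 0.22 (SE 0.05, adjusted p = 0.000691 by limma).

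Gpr17, a receptor present for a short time in progenitors that have started to differentiate, was between 12.9 and 18.4 FPKM at day 7 (median 15.1) and between 11.0 and 14.98 at day 14 (median 13.3). It fell by 0.20 (SE 0.06, adjusted p = 0.0142 by limma). Without the 7 libraries that lie between others the Gpr17 difference was -0.17, with an adjusted p of 0.116 by limma.

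Bcas1, a myelin-associated protein of oligodendrocytes that begin to myelinate, was between 61.3 and 99.4 FPKM at day 7 (median 78.5) and between 46.2 and 67.0 at day 14 (median 54.2). All 9 day 7 libraries were above the saline libraries, which were at 60.1, 56.6 and 58.8, and 5 of 9 day 14 libraries were below them. Bcas1 fell by 0.48 (SE 0.14, adjusted p = 0.00872 by limma). Its difference was -0.39 without the 2 libraries of high mitochondrial share (adjusted p = 0.0695 by limma) and -0.47 without the 7 (adjusted p = 0.0606).

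Enpp6 encodes a choline-specific phosphodiesterase of newly formed oligodendrocytes. It was between 3.42 and 6.12 FPKM at day 7 (median 4.50) and between 2.28 and 3.97 at day 14 (median 3.47). All 9 day 14 libraries were below the saline libraries, which were at 6.15, 5.19 and 6.07. Enpp6 fell by 0.37 (SE 0.08, adjusted p = 0.00128 by limma).

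Pdgfra, the receptor through which PDGF keeps progenitors dividing, followed another course. It was between 8.75 and 11.1 FPKM at day 1 (median 9.67), 7.43 and 9.79 at day 3 (median 8.42), 6.51 and 8.88 at day 7 (median 7.55), and 7.12 and 8.68 at day 14 (median 7.65). All 9 day 1 libraries were above the saline libraries, which were at 8.34, 8.06 and 8.27 FPKM, and above all 9 of day 14. Among all tested genes, 1.01% had every day 14 library below every day 1 library, and Pdgfra was the only member that did. Its difference between day 14 and day 7 was 0.02 ± 0.05 (SE, adjusted p = 0.754 by limma).

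**Figure D2:**
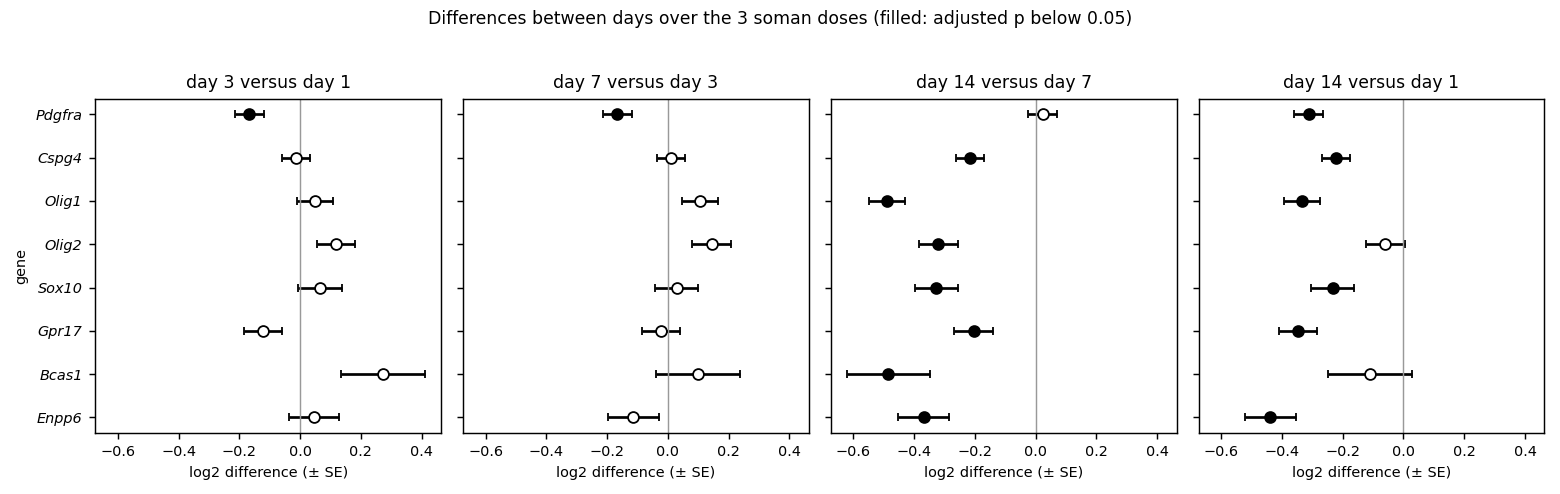
Log2 difference on the log2(FPKM + 1) scale (x axis; points, with SE as bars) for each gene between days over the 3 soman doses, filled where the adjusted p was under 0.05. From day 7 to day 14 all genes but Pdgfra lie left of 0, by 0.20 to 0.49, and Pdgfra alone is filled from day 1 to 3 and from day 3 to 7.

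From day 1 to day 3, 1 of 8 genes fell and none rose, where 10.6% of all tested genes fell. This was Pdgfra, which fell by 0.17 (SE 0.05, adjusted p = 0.0106 by limma). The call was lost with the trend on transcript length taken off (adjusted p = 0.384 by limma) and without the 7 libraries (adjusted p = 0.0669). Bcas1 had a log2 difference of 0.27 ± 0.14 (SE) over this step, and 1 library weighed on it. At 1/10 LD50 on day 3 Bcas1 was at 80.2, 92.9 and 36.6 FPKM, and without the third library, the lowest of all 39, it rose from day 1 to day 3 (adjusted p = 0.0115 by limma). From day 3 to day 7 again 1 of 8 genes fell, where 3.97% of all tested genes did. Pdgfra fell by a further 0.17 (SE 0.05, adjusted p = 0.0333 by limma). This call was lost when any of 10 of the 18 libraries was left out (highest adjusted p = 0.0839 by limma), namely replicates 1 and 2 of 1/10 LD50, 3 of 1/5 and 1 and 2 of 1/2 at day 3, and replicates 3 of 1/10, 1 and 3 of 1/5 and 1 and 2 of 1/2 at day 7. The adjusted p was 0.249 without the 2 libraries of high mitochondrial share and 0.109 without the 7 by limma.

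Between day 1 and day 14, which shares its day 14 libraries with the comparison above, 6 of 8 genes fell, where 7.67% of all tested genes did. The median was -0.27 for the 8 genes and 0.01 for all tested genes. Enpp6 fell by 0.44 (SE 0.08, adjusted p = 0.000519 by limma), Gpr17 by 0.35 (adjusted p = 0.000271), Olig1 by 0.33 (adjusted p = 0.000242), Pdgfra by 0.31 (adjusted p = 3.01e-05), Sox10 by 0.23 (adjusted p = 0.0252) and Cspg4 by 0.22 (adjusted p = 0.00148). The log2 difference was -0.06 for Olig2 (adjusted p = 0.582 by limma) and -0.11 for Bcas1 (adjusted p = 0.645). Both had mean levels at day 1, 11.2 FPKM for Olig2 and 61.9 for Bcas1, near those of day 14, 10.7 and 56.7, and higher means at day 7, 13.6 and 80.2. Without the 7 libraries the adjusted p was 0.0690 for Cspg4 and 0.175 for Sox10 by limma. The Sox10 call was also lost without replicate 2 of 1/5 or replicate 1 of 1/2 LD50 at day 1, or without replicate 2 of 1/10 or replicate 1 of 1/2 LD50 at day 14 (highest adjusted p = 0.0623 by limma).

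Whether the effect of dose differed between days was asked by an interaction F-test, which called 1 of 8 genes, Olig2 (adjusted p = 0.0226 by limma), where 1.59% of all tested genes passed. At day 1 Olig2 was at 10.1, 8.61 and 8.23 FPKM at 1/10 LD50, 11.5, 11.8 and 12.2 at 1/5, and 12.9, 13.2 and 12.4 at 1/2. At day 3 it was at 13.1, 17.0 and 12.2 FPKM at 1/10 LD50, 12.8, 11.2 and 11.4 at 1/5, and 12.0, 10.8 and 9.51 at 1/2. The lowest dose was thus the lowest group at day 1, without overlap, and had the highest mean at day 3. The adjusted p was 0.0546 by limma without replicate 3 of 1/10 LD50 at day 1, and 0.516 without the 7 libraries. Without replicate 1 of 1/10 LD50 at day 7 Olig1 passed too (adjusted p = 0.0389 by limma).

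Against saline, calls at the settings above were few and were all falls of Gpr17 or Enpp6. The mean of the 12 soman groups was below saline for 1 of 8 genes, where 2.16% of all tested genes fell. This was Gpr17, at 18.5, 19.3 and 18.8 FPKM in saline and between 11.0 and 21.3 in the 36 soman libraries (median 14.9). In 33 of the 36 it was below all saline libraries, and both libraries above them were of day 1. How many of all tested genes lay below saline in as many libraries was not counted. Gpr17 fell by 0.29 (SE 0.08, adjusted p = 0.0421 by limma). The call was lost without any of the 3 saline libraries, and without replicate 3 of 1/5 or 1/2 LD50 at day 1, replicate 2 of 1/5 at day 3, or replicate 3 of 1/5 or 1/2 at day 14 (highest adjusted p = 0.231 by limma). Without the 7 libraries the adjusted p was 0.423 by limma. Enpp6 was below all saline libraries in 25 of 36 soman libraries, with a log2 difference of -0.32 ± 0.11 (SE, adjusted p = 0.101 by limma).

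**Figure D3:**
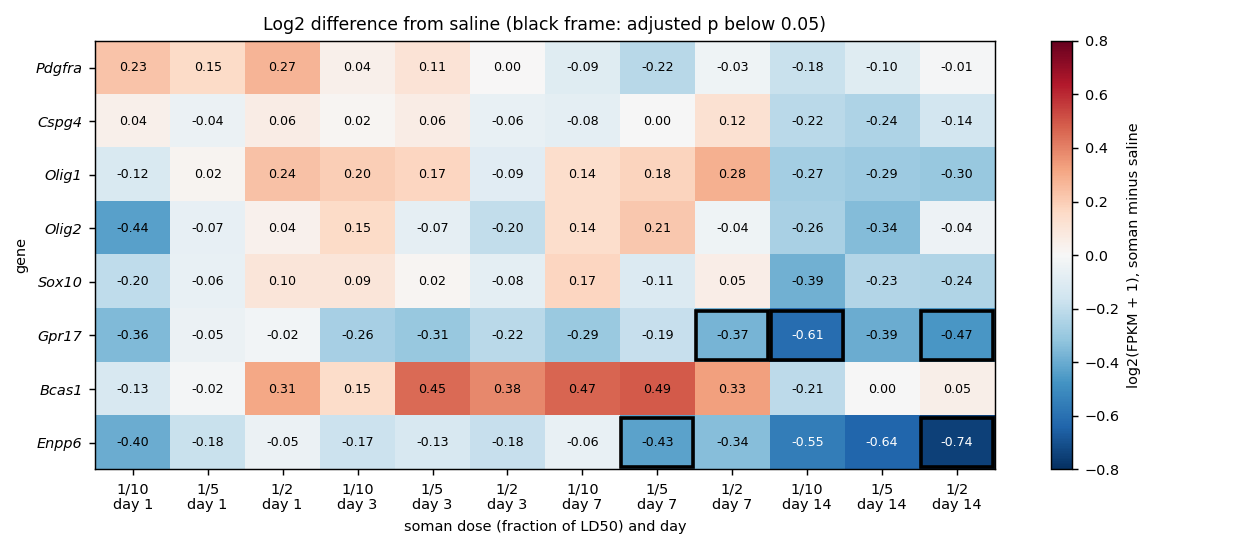
Log2 difference from saline on the log2(FPKM + 1) scale (colour and printed value) for the 8 genes (rows) in each soman group (columns, dose as a fraction of the LD50 and day), with a black frame where the adjusted p was under 0.05. The 5 framed cells are 3 of Gpr17 and 2 of Enpp6, all at day 7 or 14.

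At day 1, 0 of 8 genes differed from saline by limma at each dose, where 0.347% of all tested genes were called at 1/10 LD50, 0.0136% at 1/5 and 0.116% at 1/2. At an unadjusted p under 0.05 there were 4 members at 1/10 LD50, 0 at 1/5 and 2 at 1/2. Of all 14701 tested genes, 1579, 843 and 1075 passed that unadjusted threshold at these doses. Olig2 at 1/10 LD50 was nearest to a call, with a log2 difference of -0.44 ± 0.11 (SE, adjusted p = 0.0668 by limma). Pdgfra was 0.23 above saline on the log2 scale at 1/10 LD50, 0.15 at 1/5 and 0.27 at 1/2, with adjusted p of 0.255, 0.912 and 0.259 by limma.

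At day 3, 0 of 8 genes were called by limma at each dose, where 6.97% of all tested genes were called at 1/10 LD50, 8.60% at 1/5 and 8.44% at 1/2. At an unadjusted p under 0.05 there was 1 member at 1/10 LD50, 1 at 1/5 and 0 at 1/2, Gpr17 in both cases. Of all 14701 tested genes, 3311, 3666 and 3655 passed that unadjusted threshold at these doses. Gpr17 at 1/5 LD50 was at 15.3, 14.8 and 15.1 FPKM, with a log2 difference of -0.31 ± 0.11 (SE, adjusted p = 0.0735 by limma).

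At day 7 none of the 8 genes was called at 1/10 LD50 by limma, where 19.5% of all tested genes were called. At an unadjusted p under 0.05 there was 1 member, beside 5051 of all 14701 tested genes. At 1/5 LD50, 1 of 8 fell, where 8.87% of all tested genes fell. This was Enpp6, at 3.62, 4.50 and 4.06 FPKM, which fell by 0.43 (SE 0.14, adjusted p = 0.0426 by limma). At 1/2 LD50, 1 of 8 fell, where 6.68% of all tested genes fell. This was Gpr17, at 12.9, 12.96 and 17.6 FPKM, which fell by 0.37 (SE 0.11, adjusted p = 0.0289 by limma). In both cases 1 of 8 is near the share of all genes that fell. The Enpp6 call was lost without replicate 1 or 3 of saline or of its own group (highest adjusted p = 0.142 by limma), and the Gpr17 call without any saline library or replicate 1 or 2 of its own group (highest adjusted p = 0.223). Without the 7 libraries the adjusted p was 0.204 for Enpp6 and 0.156 for Gpr17 by limma.

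The 2 libraries of high mitochondrial share enter the model that all comparisons use. Without them, which leaves 1 library at 1/10 LD50 on day 7, 4 genes instead of 2866 were called there over all genes. Olig2 at 1/10 LD50 on day 1 then passed (adjusted p = 0.0460 by limma), as did Gpr17 at 1/5 on day 3 (0.0474), Pdgfra at 1/5 on day 7 (0.0419), Enpp6 at 1/5 on day 14 (0.0381) and, with a higher level than saline, Olig1 at 1/2 on day 7 (0.0415). Leaving out a single library also added calls. At 1/2 LD50 on day 7 Enpp6 passed without replicate 3 of its group (adjusted p = 0.0178 by limma), the library at 5.99 FPKM beside 3.42 and 3.98. Olig1 passed there without replicate 2 of its group (0.0300) or replicate 1 of saline (0.0486). Gpr17 at 1/10 on day 7 passed without replicate 2 of its group (0.0295), Pdgfra at 1/5 on day 7 without replicate 2 of its group (0.0428), and Olig2 at 1/10 on day 1 without replicate 1 of its group (0.0494). Without replicate 3 of 1/2 LD50 at day 7 the mean of the 12 groups was called below saline for Enpp6 (0.0455).

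At day 14 calls over all genes were rare, and 3 of them were of Gpr17 or Enpp6. At 1/10 LD50, 1 of 8 fell, where 0.388% of all tested genes fell. Gpr17 was at 12.98, 11.0 and 12.1 FPKM there, all below saline, and fell by 0.61 (SE 0.11, adjusted p = 0.00455 by limma). At 1/2 LD50, 2 of 8 fell, where 0.333% of all tested genes fell. Gpr17 was at 13.6, 13.1 and 13.4 FPKM and fell by 0.47 (SE 0.11, adjusted p = 0.0443 by limma). Enpp6 was at 2.28, 3.51 and 3.50 FPKM and fell by 0.74 (SE 0.14, adjusted p = 0.0123 by limma).

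At 1/5 LD50 on day 14, 0 of 8 genes were called by limma, where 0.163% of all tested genes were called. At an unadjusted p under 0.05 there were 5 members, beside 1522 of all 14701 tested genes. Gpr17 was at 13.3, 14.98 and 14.1 FPKM and Enpp6 at 3.47, 3.17 and 3.45, all below the saline libraries. Their log2 differences were -0.39 ± 0.11 (SE, adjusted p = 0.128 by limma) and -0.64 ± 0.14 (SE, adjusted p = 0.0580). The median of the 8 genes against saline at day 14 was -0.27, -0.27 and -0.19 at 1/10, 1/5 and 1/2 LD50, and that of all tested genes -0.04, 0.01 and -0.01. Whether the doses differed from each other in these changes was not tested.

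The day 14 calls against saline rest on few libraries. Without replicate 2 of its group the Gpr17 call at 1/10 LD50 was lost (adjusted p = 0.0571 by limma). At 1/2 LD50 the Gpr17 call was lost without any of the 6 libraries compared (highest adjusted p = 0.206 by limma), and the Enpp6 call without replicate 1 or 3 of saline or replicate 1 of its group (highest adjusted p = 0.154). Without the 7 libraries, which leaves 2 in saline, the adjusted p was 0.235 for Gpr17 at 1/10 LD50, 0.351 for Gpr17 at 1/2 and 0.248 for Enpp6 at 1/2 by limma. In these bulk samples fewer cells of a type and less RNA per cell cannot be told apart.

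Genes of the same pathway, from lists written by cell type and role, put the step from day 7 to day 14 in context. Of 12 genes for PDGF and other growth signals of progenitors, 0 fell and 2 rose. Over all tested genes 17.1% rose, so 2 of 12 is near the background. The 2 were Bdnf, a neurotrophin, by 0.26 (adjusted p = 9.55e-05 by limma) and Igf1r, the insulin-like growth factor receptor, by 0.19 (adjusted p = 0.000234). The PDGF ligand genes Pdgfa, Pdgfb, Pdgfc and Pdgfd, the first of which encodes the main ligand of PDGFRA, were not called. Of 21 other regulators of the lineage, 4 fell and 2 rose, where 11.5% of all tested genes fell and 17.1% rose. Nkx6-2, a homeobox factor of myelinating cells, fell by 0.50 (adjusted p = 0.000323 by limma) and Sox8, a relative of Sox10, by 0.27 (adjusted p = 0.0101). Zfp536 rose by 0.31 (adjusted p = 0.00045 by limma) and the chromatin remodeller gene Chd8 by 0.17 (adjusted p = 0.000388).

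Other markers of progenitors moved both ways. Of 20 tested, 5 fell and 3 rose, and the median was -0.01. Over all tested genes 11.5% fell and 17.1% rose, so 3 of 20 is near the background for rises. Cacng4, an auxiliary protein of AMPA receptors, fell by 0.29 (adjusted p = 6.94e-05 by limma) and Matn4, a matrix protein, by 0.42 (adjusted p = 0.00138). Xylt1, which starts chondroitin sulphate chains, rose by 0.45 (adjusted p = 7.29e-07 by limma) and the glutamate receptor gene Gria4 by 0.32 (adjusted p = 0.0114).

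Of 19 genes of newly formed oligodendrocytes, some of which stand in the other lists too, 7 fell and 2 rose, with a median of -0.12. The shares of all tested genes were 11.5% for falls and 17.1% for rises. Sirt2, a deacetylase of oligodendrocytes, fell by 0.37 (adjusted p = 3.46e-07 by limma), Parvb by 0.32 (adjusted p = 2.06e-06) and Lims2 by 0.44 (adjusted p = 1.38e-05). Of 25 myelin and mature genes, 9 fell and 0 rose, with a median of -0.19. Opalin, a membrane protein of myelin, fell by 0.60 (adjusted p = 1.79e-06 by limma), Mbp, the basic protein that compacts myelin, by 0.50 (adjusted p = 0.0011) and Fa2h, which makes hydroxylated myelin lipids, by 0.39 (adjusted p = 0.00303).

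**Figure D4:**
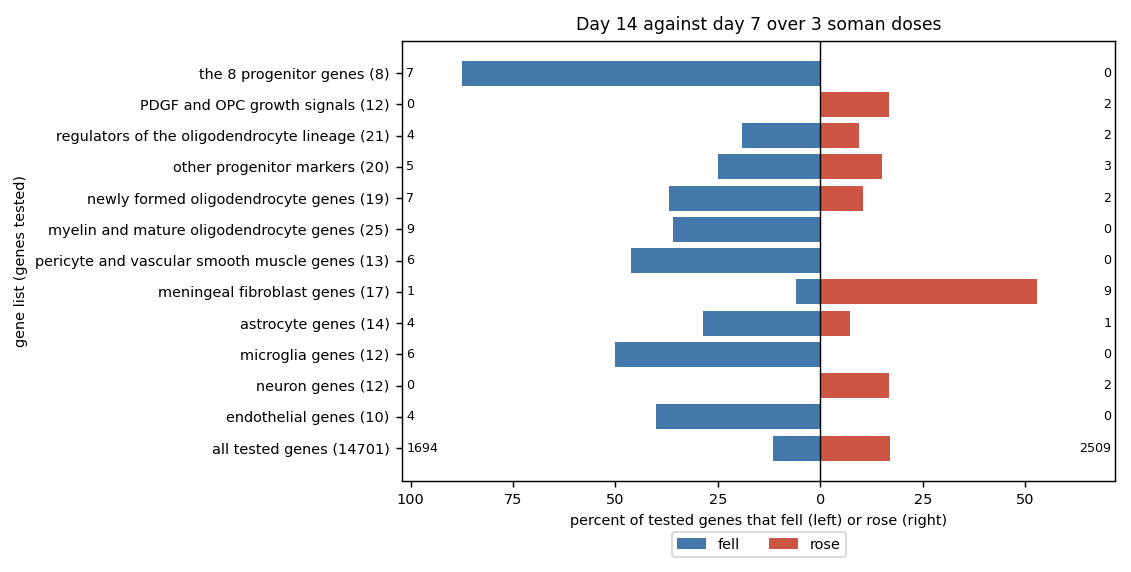
Percent of the tested genes of each list (y axis, number tested in parentheses) that fell (left, with their number) or rose (right, with their number) between day 7 and day 14 over 3 soman doses, at an adjusted p under 0.05. Of the 8 members, labelled progenitor genes, 7 fell (all but Pdgfra), and of all 14701 tested genes 1694 fell and 2509 rose.

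Markers of other cells moved over the same step, and their part in the results was not tested. Of 13 pericyte and vascular smooth muscle genes 6 fell and 0 rose, among them Pdgfrb by 0.23 (adjusted p = 0.000592 by limma). Their summed level ran from 72.9 to 97.6 FPKM at day 7 and from 68.1 to 78.5 at day 14, beside 79.9 to 87.2 in saline. Of 12 microglia genes 6 fell, of 10 endothelial genes 4 and of 14 astrocyte genes 4, with 1 astrocyte gene higher. Of 12 neuron genes 0 fell and 2 rose. Among all tested genes 11.5% fell and 17.1% rose, so 2 of 12 neuron genes is near the background. The summed myelin and mature genes were between 3298 and 5323 FPKM at day 7 and between 2942 and 3668 at day 14, beside 3957 to 4110 in saline.

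Genes of meningeal fibroblasts, which make Pdgfra, were lower at each step up to day 7 as Pdgfra was. Of 17, 12 fell and 0 rose from day 1 to day 3, among them the collagen gene Col3a1 by 0.58 (adjusted p = 5.02e-06 by limma), and 8 fell and 0 rose from day 3 to day 7. Of all tested genes, 10.6% fell from day 1 to day 3 and 3.97% from day 3 to day 7. From day 7 to day 14, 9 of the 17 rose and 1 fell, where 17.1% of all tested genes rose and 11.5% fell. The summed level of the 17 genes was 105 to 122 FPKM in saline and 92.01 to 116 at day 1. It was 69.7 to 92.2 at day 3, 57.3 to 85.3 at day 7 and 73.2 to 89.1 at day 14. At day 1, when all 9 Pdgfra values were above saline, the median of this sum was 102 FPKM, beside a saline median of 111. At 1/2 LD50 on day 1, the group with the highest Pdgfra mean, the sum was 112 to 116 FPKM, within the range of saline. No gene of these lists was at 0 in every library, and the part of fibroblasts and pericytes in the Pdgfra and Cspg4 values was not tested.

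The genes whose levels followed each member most closely over the 39 libraries were found by Pearson's r on the log2 scale. The libraries share groups and days, so these values are a description. Pdgfra was closest to Notch3, a receptor of vascular smooth muscle (r = 0.84), Eln (0.78) and Lamc1 (0.78). Cspg4 was closest to Col4a2, a basement membrane collagen (0.84), Nrarp (0.83) and Fgfrl1 (0.78). Olig1 was closest to S100a16, Plxnb3 and Rhog (each 0.81), and Olig2 to Serpine2 (0.78), Evi2a (0.75) and Gltp (0.72). Sox10 was closest to Myrf, the regulator of myelin genes (0.80), Gltp (0.80) and Plxnb3 (0.79), and Gpr17 to Map4k4 (0.79), Inppl1 (0.77) and Trak2 (0.77). Bcas1 was closest to Prr18 (0.89), Lgmn (0.84) and Mbp (0.84), and Enpp6 to Fa2h (0.86), Cat (0.86) and Nsdhl (0.84). After group means were removed, r was 0.92 for Enpp6 with Fa2h, 0.86 for Bcas1 with Prr18 and 0.34 for Pdgfra with Eln.

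Among the 28 pairs of members, r over the 39 libraries ran from -0.04 to 0.77 with a median of 0.49, and 14 pairs were over 0.5. The highest was that of Sox10 and Enpp6 and the lowest that of Pdgfra and Olig2. Within groups it ran from -0.17 to 0.70 with a median of 0.46, so libraries of a group that were high in a member tended to be high in others.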

How the data were processed

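The aligner was HISAT2 (no version is named), per the submitters' processing notes. The build they list is human, GRCh38, although the samples are from mice, so no coordinate comes from the deposited values. Per the labels' protocols, RNA from Trizol was selected on poly(dT) beads and reverse transcribed with SmartScribe. The authors deposited FPKM in 1 table of 47561 genes, and the program that made it is not given in the sources used here. Depth, and the precision it gives, is unknown.

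Samples were grouped by their labels. A gene was tested if at least 3 libraries reached an FPKM of 1. The deposited FPKM were turned here into log2(FPKM + 1) and fitted in 1 model of 13 group means with limma 3.58.1 in R 4.3.3 (lmFit, eBayes with trend), in 20 comparisons, two-sided, with Benjamini-Hochberg adjustment over all 14701 tested genes and a threshold of 0.05. The code was tested on simulated data. Lists, promoters and plots were made in Python 3.11.15 (numpy 2.4.6; pandas 2.3.3; matplotlib 3.10.9).

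To find libraries between the others of their group, genes with a mean of at least 5 FPKM and more than 2-fold apart in the others were placed on the interval, and those at 0.3 to 0.7 of it were counted. Transcript lengths (the longest transcript in GENCODE vM21) were found for 14104 tested genes (95.9%).

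The genes named are the 8 members, the 3 genes of highest r to each among tested genes of mean FPKM 2 or more that are not predicted loci, and up to 4 called genes of smallest p from each list. The members and lists were chosen with earlier results of these data known. Each comparison was repeated without the filter, with 0.1 as pseudocount, after scaling libraries by median ratios, on the compared groups alone, with a replicate block, after a lowess (span 0.5) on transcript length was subtracted in every library, and after leaving out the 2 or the 7 libraries that stand apart or each library in turn.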

Additional observations from a re-analysis of the deposited data

Results flagged for a closer look

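The dose effect on Olig2 differed between days (interaction F-test, adjusted p = 0.0226 by limma). Between the lowest and the highest dose, 1/10 and 1/2 LD50, the means were 8.98 ± 0.994 and 12.8 ± 0.412 FPKM at day 1 (SD, n = 3 each), 14.1 ± 2.57 and 10.8 ± 1.24 at day 3, 13.9 ± 1.64 and 12.3 ± 2.22 at day 7, and 10.3 ± 0.510 and 12.1 ± 1.04 at day 14.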

How the results depend on the processing

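Of 1186 values of single genes under the alternatives, 1082 kept their side of the threshold, 79 lost a call and 25 gained 1. Of those with a direction 0 reversed. Values of the F-tests, which are among the 1186, have no direction and could not reverse. From day 7 to day 14, 5 to 7 members were called, and from day 1 to day 14, 4 to 6. The number of members called changed by more than 1.5 times as follows, and the cause was not tested. With no filter it was 0 for 1/5 and for 1/2 LD50 at day 7, 1 for 1/2 at day 14, 0 for the mean of 12 groups, 0 from day 3 to 7 and 0 for the interaction. With median-ratio scaling it was 1 for 1/5 at day 3, 2 for 1/5 at day 7, 1 for 1/5 at day 14 and 0 from day 3 to 7. That scaling moved the median of all genes by at most 0.0827. With only the groups compared it was 1 for 1/10 at day 1, 1 for 1/5 at day 3, 2 for 1/5 and 0 for 1/2 at day 7, 2, 2 and 1 for 1/10, 1/5 and 1/2 at day 14, and 0 from day 3 to 7. With the length trend removed it was 0 for 1/5 at day 7, 1 for 1/5 and 1 for 1/2 at day 14, 0 for the mean of 12 groups, 0 from day 1 to 3 and 0 from day 3 to 7. Without the 2 libraries of high mitochondrial share it was 1 for 1/10 at day 1, 1 for 1/5 at day 3, 2 for 1/5 and 2 for 1/2 at day 7, 1 for 1/5 at day 14 and 0 from day 3 to 7. Without the 7 libraries it was 0 for 1/5 and 1/2 at day 7, 0 for 1/10 and 1/2 at day 14, 0 for the mean of 12 groups, 0 from day 1 to 3, 0 from day 3 to 7 and 0 for the interaction. Leaving out single libraries gave 0 to 1 for 1/10 at days 1, 7 and 14, 0 to 2 for 1/5 and for 1/2 at day 7, 0 to 1 for 1/2 at day 14, 0 to 2 for the mean of 12 groups, 1 to 2 from day 1 to 3, 0 to 1 from day 3 to 7, 0 to 2 for the interaction and 7 to 7 from day 7 to 14. Some gained calls were rises above saline. With the length trend removed, the Gpr17 fall at 1/2 on day 7 was lost. Cspg4 was called higher there instead (log2 difference 0.30, adjusted p = 0.0283 by limma). With only the groups compared, Bcas1 at 1/5 on day 7 was called higher (0.49, adjusted p = 0.0160 by limma).

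The number called over all tested genes is given with its lowest and highest value under these alternatives, apart from leaving out single libraries. At day 1 it was 51 (9 to 143) for 1/10, 2 (0 to 27) for 1/5 and 17 (1 to 30) for 1/2. At day 3 it was 1025 (144 to 1624) for 1/10, 1265 (203 to 1942) for 1/5 and 1241 (140 to 2012) for 1/2. At day 7 it was 2866 (highest 2923) for 1/10 and 2258 (756 to 3105) for 1/5. It was 1234 (196 to 1787) for 1/2 day 7, 64 (0 to 134) for 1/10 day 14, 24 (0 to 91) for 1/5 day 14, 61 (0 to 88) for 1/2 day 14, 378 (1 to 671) for the mean of 12, 6 (2 to 6) for 1/2 against 1/10, 3455 (1415 to 4388) for day 3 against day 1, 891 (117 to 987) for day 7 against day 3, 4203 (2686 to 4461) for day 14 against day 7, 2197 (685 to 2926) for day 14 against day 1, 7277 (4409 to 7555) for any difference among 4 days and 234 (1 to 320) for the interaction.

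With the replicate block the count was 0 for 1/5 at day 7, 1 for 1/2 at day 14 and 0 for the mean of 12 groups, and 7 from day 7 to 14. Same-numbered libraries did not deviate together (median r 0.00535, 0 of 12 soman groups with all 3 pairs over 0.1 and 14 of 39 libraries closest to their own number), so the numbers do not pair the libraries.

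Depth is unknown, the saline day is not given, and 3 libraries a group limit each comparison with saline.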
